A study of Mus musculus with 6 samples.

Results

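The nuclear genes for the proteins of the mitochondrial ribosome were followed in cerebral cortex RNA of 12 months old mice. Members were the protein-coding genes whose symbol starts with Mrpl or Mrps and a number, 78 of 54532 genes in the table, with 49 Mrpl symbols and 29 Mrps symbols. The groups were 3 wild-type libraries (WT) and 3 libraries labelled Fam69c KO (Fam69c-/-). Strain, sex, the allele and the number of mice behind each library were not given in the sources used here, and p-values therefore reflect only how much these libraries vary, which may be technical. Bulk tissue was sequenced, so fewer cells of a type and less RNA per cell cannot be told apart.

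The mitochondrial ribosome translates the few proteins that the mitochondrial genome encodes, all of them subunits of the respiratory chain and ATP synthase. Its ribosomal RNAs come from the mitochondrial genome, while all of its proteins are encoded in the nucleus, made in the cytosol and imported. Compared with the bacterial ribosome it has less RNA and many added proteins, and neurons depend on its products for the ATP that supports ion pumping and synaptic transmission.

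Each library held between 30935326 and 35065884 reads, a depth read off the deposited FPKM values (reads scaled by gene model length and library size). Fam69c read 2.03, 1.57 and 2.08 FPKM in WT replicates 1 to 3 and 1.54, 1.84 and 1.42 FPKM in knockout-labelled replicates 1 to 3. Its groups overlapped, and its log2 fold change was -0.19 (95% interval -0.49 to 0.11, limma adjusted p = 0.999). Its RNA thus did not check the labels, and all directions given here follow the labels. Cortical neuron markers were present in each library, with the 5 excitatory markers summing to between 798 and 842 FPKM. Striatum markers stood apart, at 156 FPKM summed in WT replicate 3 and 212 FPKM in knockout-labelled replicate 1, against 350 to 455 FPKM in the other 4 libraries.

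Of the 78 members, 77 had a mean of at least 0.5 FPKM, and these spanned a 26.0-fold range of level per length around a median of 10.5 FPKM. The highest was Mrpl41, a mitochondria-specific protein of the large subunit, with 43.5, 42.6 and 38.9 FPKM in WT and 42.5, 36.3 and 37.7 FPKM in the knockout-labelled libraries. Mrpl34, a large-subunit protein with a bacterial counterpart, averaged 34.7 FPKM over the 6 libraries. Mrps21 averaged 34.0 FPKM and Mrps12, a protein of the decoding site of the small subunit, 32.2 FPKM. Mrpl28 averaged 31.4 FPKM. In each of these 5 genes the groups overlapped. The lowest was Mrpl33, with 1.63, 1.29 and 1.42 FPKM in WT and 1.66, 1.48 and 1.83 FPKM in the knockout-labelled libraries. Mrps30, Mrps35, Mrpl32 and Mrpl47 followed, with means of 2.04, 2.05, 2.39 and 2.61 FPKM. Despite its symbol, Mrps30 encodes a protein of the large subunit.

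These levels depend on the length that each value was divided by. Gene models in the table ran from 607 bases for Mrpl34 to 8631 bases for Mrps35, and for 73 of 78 members they equalled the joined exons of all transcripts in GENCODE M21. In 21 of 77 members the model was over 2 times as long as the principal coding transcript, and for Mrpl33 it was 15.3 times as long, 7326 against 478 bases. Across the 77 members, FPKM and model length had a Spearman rho of -0.81, while the read number and model length had a rho of 0.21. These are descriptions across genes that share the same libraries, and length enters FPKM by construction. Over all 12987 protein-coding genes tested, the rho of FPKM with model length was -0.10. Divided by the length of the principal transcript instead, Mrpl33 moved from rank 77 to rank 23, at 23.8 FPKM on that scale. Mrps17 moved from rank 50 to rank 1, at 65.5 FPKM, and Mrpl30 from rank 33 to rank 3, at 60.0 FPKM, both named here after their values were seen. Mrps21, Mrps12 and Mrpl41 stayed among the 5 highest on both scales, and Mrpl47 and Mrpl32 among the 5 lowest. Reads in exons outside the principal transcript count toward it on this scale, so the rescaled level is an upper limit where such exons are used.

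**Figure D1:**
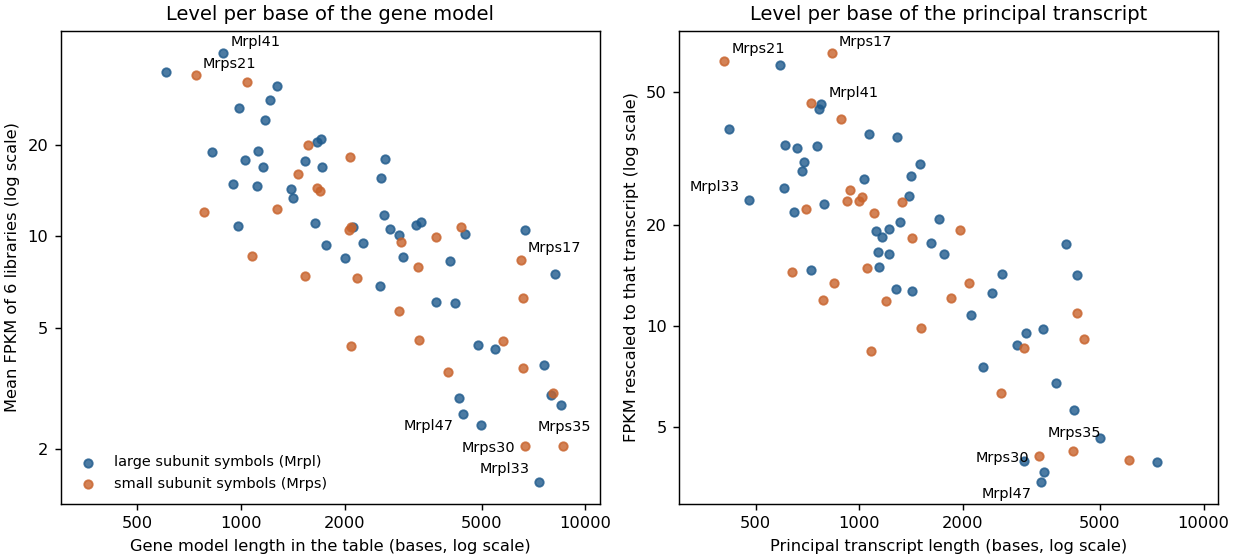
Mean level of the 77 measured members over 6 libraries against length, with log axes; blue points are Mrpl symbols and orange points Mrps symbols. On the left FPKM falls along the gene model length (Spearman rho -0.81), with Mrpl41 at 40.3 FPKM and Mrpl33 at 1.55 FPKM; on the right, per base of the principal transcript, Mrpl33 sits at 23.8 FPKM and Mrps17 is highest.

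Mrpl53, a mitochondria-specific protein of the large subunit (chromosome 6, 83109040 to 83109939, mm10), was listed at 0 in all 6 libraries and was not tested. Of its 790 annotated exon bases, 695 (88.0%) also belong to Gm42688, a protein-coding model on the same strand that runs through the neighbouring Ccdc142 gene. Gm42688 itself was low, at 26, 38 and 35 WT reads and 37, 53 and 57 knockout-labelled ones. On the same strand too, Nme3 shares 763 exon bases with Mrps34 and was listed at 0 reads in every library, while Mrps34, a mitochondria-specific small-subunit protein, read between 9.21 and 12.0 FPKM. Whether shared exons set these zeros was not tested. In GENCODE M21, 33 of 78 members share exon bases with another annotated gene, mostly on the other strand. The use of strand in counting was not given in the sources used here. On the other strand, the largest parts of a member were shared by Mrps25 with Nr2c2 (4590 bases, 69.8%) and Mrps34 with Mapk8ip3 (1309 bases, 63.4%). Mrpl19 shares 1962 bases with Gcfc2 and Mrpl24 594 with Rrnad1. Mrpl47 shares 616 with Ndufb5 and Mrps18b 638 with the antisense Gm16279. The values of these members are therefore uncertain. Mrpl43 and Twnk share 507 bases in GENCODE M21, but in the table the Mrpl43 model ends at 45006442 and that of Twnk starts at 45006558.

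Promoters of the members were described too, and whether they bear on levels or on variation between libraries was not tested. RefSeq promoters of the GRCm38.p6 assembly, 250 bases before and 50 after the start, were matched by symbol for 69 of 78 members. For a member, the promoter nearest the 5′ end of its gene was taken. For the genes set beside the members it was the first promoter listed for each gene, with no limit to genes tested in cortex. How far these unlike choices move the percentages was not tested. Motifs of factors known to act on nuclear genes for mitochondrial proteins were searched on both strands: NRF1 as GCGCA, any base and then GCGC, ETS factors such as GABPA as CCGGAAG, and YY1 as AAGATGGC. NRF1 letters stood in 13 of 69 member promoters (18.8%) against 4.78% of 27025 promoters, 1 for each gene, and 6.84% of the 16497 protein-coding ones. The ETS letters stood in 24 (34.8%) against 9.12% and 12.2%, and those of YY1 in 12 (17.4%) against 2.88% and 3.29%. At least 1 of the 3 was found in 41 of 69, and matches of different motifs overlapped in 0 promoters. TATAAA stood in 4 member promoters (5.80%) against 14.2% and 12.9%, and CCAAT in 39.1% against 37.9% and 38.8%. Median GC content was 58.3% in the member promoters and 57.0% in all protein-coding ones. Promoters of cytosolic ribosomal protein genes held the NRF1, ETS and YY1 letters in 6.15%, 36.9% and 7.69%, and those of nuclear respiratory chain subunits in 24.2%, 22.7% and 12.1%.

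The 280 bases from 250 before to 30 after the start are printed for 8 members, with the NRF1, ETS and YY1 matches in capitals and the 5′ end first. Mrps26 had the smallest p of the members, and Mrpl43 and Mrpl35 were among the smallest on the lower and the higher side. Mrps21 and Mrps12 were among the highest by level and Mrpl32 and Mrps30 among the lowest. Mrpl12 encodes a stalk protein that also binds the mitochondrial RNA polymerase. They lie at chr2:130563507-130563786 (plus strand, Mrps26), chr19:45006413-45006692 (minus strand, Mrpl43), chr6:71823755-71824034 (minus, Mrpl35), chr3:95871485-95871764 (minus, Mrps21), chr7:28741792-28742071 (minus, Mrps12), chr11:120484387-120484666 (plus, Mrpl12), chr13:14613008-14613287 (minus, Mrpl32) and chr13:118387223-118387502 (minus, Mrps30).
Mrps26: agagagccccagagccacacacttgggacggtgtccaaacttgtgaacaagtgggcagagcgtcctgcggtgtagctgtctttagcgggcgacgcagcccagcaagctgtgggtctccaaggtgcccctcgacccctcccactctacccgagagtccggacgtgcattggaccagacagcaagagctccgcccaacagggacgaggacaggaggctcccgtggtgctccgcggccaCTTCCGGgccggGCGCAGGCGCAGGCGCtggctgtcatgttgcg
Mrpl43: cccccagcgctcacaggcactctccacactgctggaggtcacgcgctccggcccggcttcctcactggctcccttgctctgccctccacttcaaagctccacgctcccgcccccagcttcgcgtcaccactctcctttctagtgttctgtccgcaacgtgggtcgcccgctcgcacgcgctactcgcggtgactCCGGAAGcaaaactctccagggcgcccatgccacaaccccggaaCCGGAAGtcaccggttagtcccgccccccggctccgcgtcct
Mrpl35: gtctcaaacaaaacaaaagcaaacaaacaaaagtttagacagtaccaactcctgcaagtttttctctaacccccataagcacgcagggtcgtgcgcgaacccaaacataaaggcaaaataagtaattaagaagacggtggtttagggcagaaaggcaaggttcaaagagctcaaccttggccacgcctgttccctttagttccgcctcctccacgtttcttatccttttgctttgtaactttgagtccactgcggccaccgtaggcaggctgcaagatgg
Mrps21: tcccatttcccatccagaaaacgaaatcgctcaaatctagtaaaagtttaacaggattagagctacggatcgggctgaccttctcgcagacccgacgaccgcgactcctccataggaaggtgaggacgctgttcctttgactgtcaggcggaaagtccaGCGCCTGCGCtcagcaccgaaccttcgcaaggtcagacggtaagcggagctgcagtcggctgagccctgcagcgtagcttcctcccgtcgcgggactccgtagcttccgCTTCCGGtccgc
Mrps12: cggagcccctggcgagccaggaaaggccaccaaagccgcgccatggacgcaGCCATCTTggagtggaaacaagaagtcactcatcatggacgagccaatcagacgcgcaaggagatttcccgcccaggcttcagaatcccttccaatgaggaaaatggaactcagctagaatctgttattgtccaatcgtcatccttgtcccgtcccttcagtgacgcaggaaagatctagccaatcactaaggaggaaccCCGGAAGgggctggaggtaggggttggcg
Mrpl12: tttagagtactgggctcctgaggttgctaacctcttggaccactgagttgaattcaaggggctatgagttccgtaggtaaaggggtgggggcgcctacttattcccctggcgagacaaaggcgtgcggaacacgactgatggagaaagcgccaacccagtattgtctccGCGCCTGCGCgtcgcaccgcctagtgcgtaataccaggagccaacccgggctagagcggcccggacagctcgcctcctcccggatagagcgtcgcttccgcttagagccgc
Mrpl32: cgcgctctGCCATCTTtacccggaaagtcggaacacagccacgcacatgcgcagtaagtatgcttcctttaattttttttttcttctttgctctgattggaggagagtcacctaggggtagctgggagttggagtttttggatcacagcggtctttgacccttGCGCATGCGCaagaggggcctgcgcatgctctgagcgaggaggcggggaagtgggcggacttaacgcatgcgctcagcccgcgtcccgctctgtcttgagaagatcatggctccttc
Mrps30: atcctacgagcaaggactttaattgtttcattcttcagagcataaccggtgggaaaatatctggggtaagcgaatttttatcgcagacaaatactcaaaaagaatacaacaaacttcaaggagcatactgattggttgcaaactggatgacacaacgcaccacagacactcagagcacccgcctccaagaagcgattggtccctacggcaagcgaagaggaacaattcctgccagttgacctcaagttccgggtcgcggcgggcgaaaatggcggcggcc
The Mrps26 stretch held 1 ETS match before its start and 2 overlapping NRF1 matches across it, and Mrpl43 held 2 ETS matches. Mrps30 and Mrpl35 held 0 of the 3 motifs in the printed stretch. The whole promoter of Mrpl35 holds 1 YY1 match, which runs past the end of the printed stretch, and that of Mrps30 holds 0. The high-level Mrps21 and Mrps12 held 2 matches each, and so did the low-level Mrpl32.

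Transcription start sites of the members often faced that of another gene. In 33 of 78 members (42.3%) the 5′ end of another protein-coding gene on the other strand lay within 1000 bases, against 15.1% of the 12987 protein-coding genes tested. Only 1 such pair joined members with each other: the 5′ ends of Mrpl46 and Mrps11 on chromosome 7 overlap by 412 bases. Mrpl46, of the central protuberance of the large subunit, read 14.1, 13.8 and 12.0 FPKM in WT and 14.9, 12.9 and 12.3 FPKM in the knockout-labelled libraries. Mrps11, of the small subunit, read 7.49, 7.16 and 7.50 FPKM in WT and 6.97, 6.72 and 7.85 FPKM in the knockout-labelled libraries. This pair was chosen for its position. Its groups overlapped in both genes, and the order of the libraries differed between them, with Mrpl46 highest in replicate 1 labelled knockout and Mrps11 in replicate 3. Several partners also encode mitochondrial proteins: Mrpl36 faces Ndufs6 and Mrpl47 faces Ndufb5, both subunits of complex I, Mrpl43 faces Twnk, the mitochondrial DNA helicase, and Mrps12 faces Sars2, the mitochondrial seryl-tRNA synthetase. Log2 fold changes of these partners were -0.11 for Ndufs6, -0.04 for Ndufb5, -0.001 for Twnk and 0.11 for Sars2, none past the threshold.

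Across the 6 libraries the members moved together by small amounts, with high and low libraries in both groups. Relative to their mean over all libraries, mean log2 levels of the 77 members stood at 0.052, 0.052 and -0.063 in WT replicates 1, 2 and 3. In the knockout-labelled libraries they stood at 0.056, -0.056 and -0.041 in replicates 1, 2 and 3. The highest library of a member was WT replicate 1 or 2 or knockout-labelled replicate 1 for 61 of 77 members, and the lowest was one of the other 3 for 64. The mean Pearson correlation between pairs of members over the 6 libraries was 0.27 over 2926 pairs, against 0.0011 over all pairs of genes tested. The value over all pairs is held near 0, because library means over all genes lay between -0.008 and 0.008. For the gene groups closest in kind this correlation was not computed. The members' value is a description, since all members share the same libraries, depth and scaling. The first principal component held 57.1% of the members' variance between libraries and 31.1% of that of all genes.

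**Figure D2:**
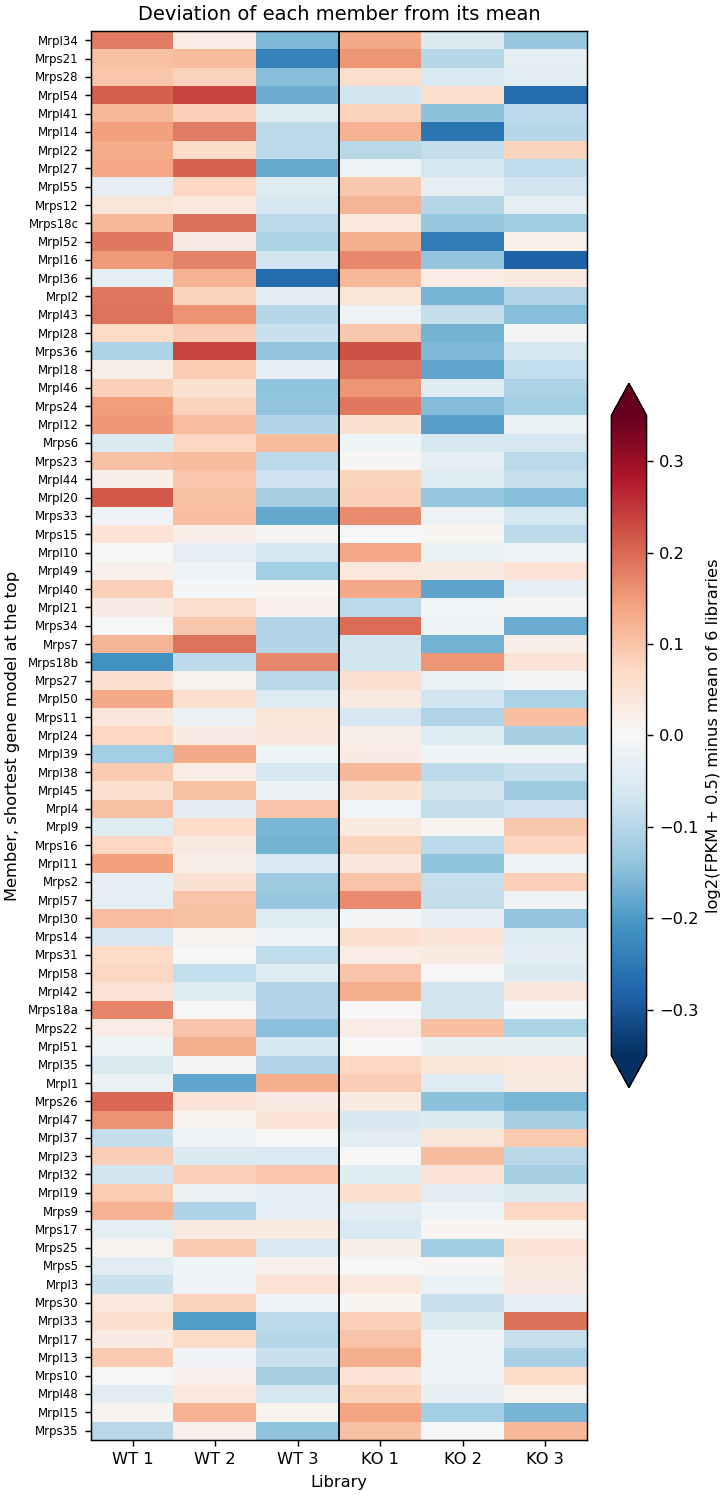
Deviation of log2(FPKM + 0.5) from the mean of 6 libraries for each of 77 members, ordered by gene model length with the shortest at the top; red is above and blue below the mean. Colours are strongest among short models, and most of the upper rows are red in WT 1, WT 2 and KO 1 and blue in WT 3, KO 2 and KO 3, while Mrps18b shows another order.

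Library means were farther apart in the short members than in the long ones. Over the 16 tested members with the shortest models, 607 to 1213 bases, the library means were 0.120, 0.116 and -0.119 in WT and 0.066, -0.097 and -0.086 in the knockout-labelled libraries. Over the 14 longest, from 5450 bases, they were 0.012, 0.007 and -0.044 in WT and 0.051, -0.037 and 0.010 in the knockout-labelled libraries. The 582 tested protein-coding genes of the short class were high in the same 3 libraries, at 0.061, 0.033 and -0.072 in WT and 0.052, -0.039 and -0.035 labelled knockout. Coefficients of variation over the 6 libraries ran from 1.79% for Mrps5 to 14.5% for Mrpl54, with a median of 6.83%. Mrps36, whose product is now known as part of the 2-oxoglutarate dehydrogenase complex and not of the ribosome, had 13.5%, with 11.3, 14.5 and 11.1 FPKM in WT and 14.3, 10.9 and 11.7 FPKM in the knockout-labelled libraries. It was high in WT replicate 2 and knockout-labelled replicate 1.

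Several values of the libraries moved with this pattern. Summed over all genes, the deposited FPKM came to 273057, 274405 and 259605 in WT and 274010, 264066 and 256956 in the knockout-labelled libraries, high in the same 3 libraries as the members. With FPKM rescaled to an equal sum (TPM scaling), the members' means were 0.021, 0.015 and -0.025 in WT and 0.020, -0.042 and 0.010 in the knockout-labelled libraries, a narrower range. As reads per library size, with no division by length, they were 0.032, 0.037 and -0.049 in WT and 0.045, -0.050 and -0.016 labelled knockout, high in the same 3 libraries as the deposited values. The 6 oligodendrocyte markers, none of them at 0, summed to 683, 752 and 575 FPKM in WT and 758, 598 and 625 FPKM in the knockout-labelled libraries. Their mean log2 deviations were -0.003, 0.174 and -0.247 in WT and 0.238, -0.111 and -0.051 labelled knockout, so WT replicate 1 was not high by this measure. The 6 markers of inhibitory neurons summed to 463, 450 and 423 FPKM in WT and 469, 424 and 397 FPKM labelled knockout. Astrocyte markers differed between measures too: their 6 genes summed to 549, 520 and 503 FPKM in WT and 544, 496 and 480 FPKM labelled knockout, but their mean log2 deviations were 0.040, -0.035 and -0.004 in WT and 0.086, -0.035 and -0.053 labelled knockout. The 5 endothelial markers had another order, with mean log2 deviations of -0.065, -0.137 and 0.098 in WT and 0.021, -0.022 and 0.106 labelled knockout. So did the 5 excitatory markers, at -0.011, -0.019 and 0.001 in WT and 0.030, -0.005 and 0.002 labelled knockout. The part of scaling, gene length or cell makeup in the members' pattern was not tested. Striatum markers did not follow the members either, since knockout-labelled replicate 1 was low in them and high in the members.

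Both gene groups closest in kind had the same high and low libraries. The 85 tested cytosolic ribosomal protein genes had means of 0.155, 0.146 and -0.069 in WT and 0.034, -0.095 and -0.171 in the knockout-labelled libraries. The 81 nuclear subunits of the respiratory chain and ATP synthase had 0.113, 0.093 and -0.089 in WT and 0.089, -0.082 and -0.124 in the knockout-labelled libraries. Within each group of libraries the members spanned a narrower range than either. Median log2 fold changes were -0.13 for the cytosolic ribosomal genes, with 78 of 85 estimates below 0, and -0.07 for the respiratory genes, with 72 of 81, beside -0.03 and 45 of 77 for the members.

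**Figure D3:**
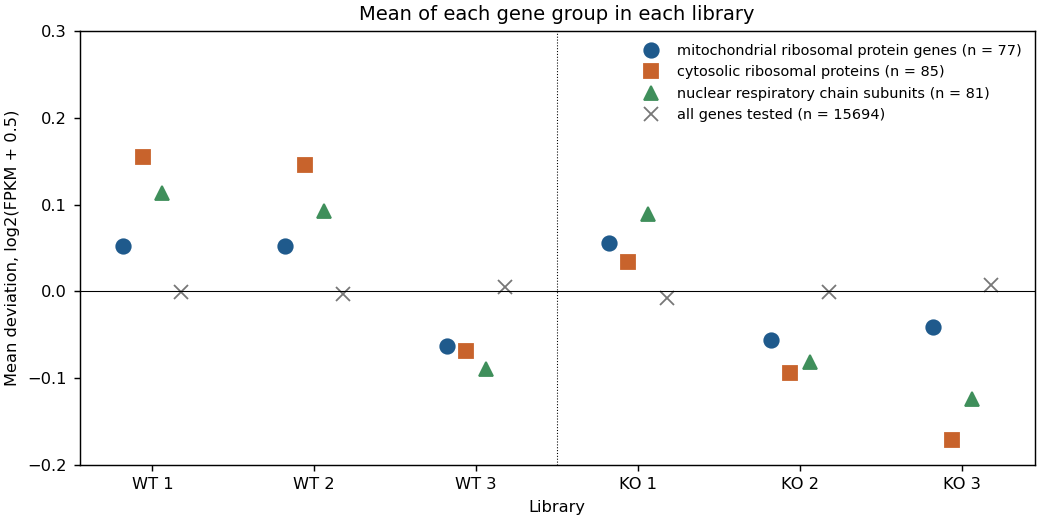
Mean deviation of log2(FPKM + 0.5) from the 6-library mean, per library, for the members (blue circles), cytosolic ribosomal protein genes (orange squares), nuclear respiratory chain subunits (green triangles) and all genes tested (grey crosses). The members lie between -0.063 and 0.056, with WT 3 low among WT and KO 1 high among the knockout-labelled libraries.

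The comparison of the knockout-labelled libraries with WT asked whether loss of Fam69c goes with other levels of the messages for mitochondrial ribosomal proteins. No member differed between the groups at an adjusted p of 0.05 (limma on log2(FPKM + 0.5), Benjamini-Hochberg over 15694 genes). Over all genes 0 passed (0.0%), and the adjusted p was 0.999 for 76 of the 77 members and 0.9995 for Mrpl39. At an unadjusted p under 0.05 there was 1 member of 77, against 599 of 15694 genes (3.82%), and it lay on the lower side, as did 2.19% of all genes. Groups did not overlap for 5 members, 3 lower and 2 higher in the knockout-labelled libraries, against 8.87% of all genes. Estimates lay below 0 for 45 of 77 members, against 52.0% of all genes, and their median log2 fold change was -0.03 against -0.004 over all genes. That median was -0.01 with TPM scaling. Leaving out 1 library it ran from -0.065 to 0.004, the latter without knockout-labelled replicate 2, where 36 of 77 lay below 0. Sample weights, or dropping WT replicate 3 and knockout-labelled replicate 1 together, moved it farther below 0, as given in the section on processing.

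Log2 fold changes of the members ran from -0.18 to 0.15, which is 0.881-fold to 1.11-fold. The 95% interval reached a median of 0.18 log2 units to either side, against 0.21 over all genes, from 240 to 2548 reads per member and library. For all 77 tested members the interval on this scale lay within a 1.5-fold difference in either direction. Differences smaller than these intervals were not detectable with 3 libraries a group. The intervals are not adjusted for the number of genes, so the adjusted test needs larger differences still.

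**Figure D4:**
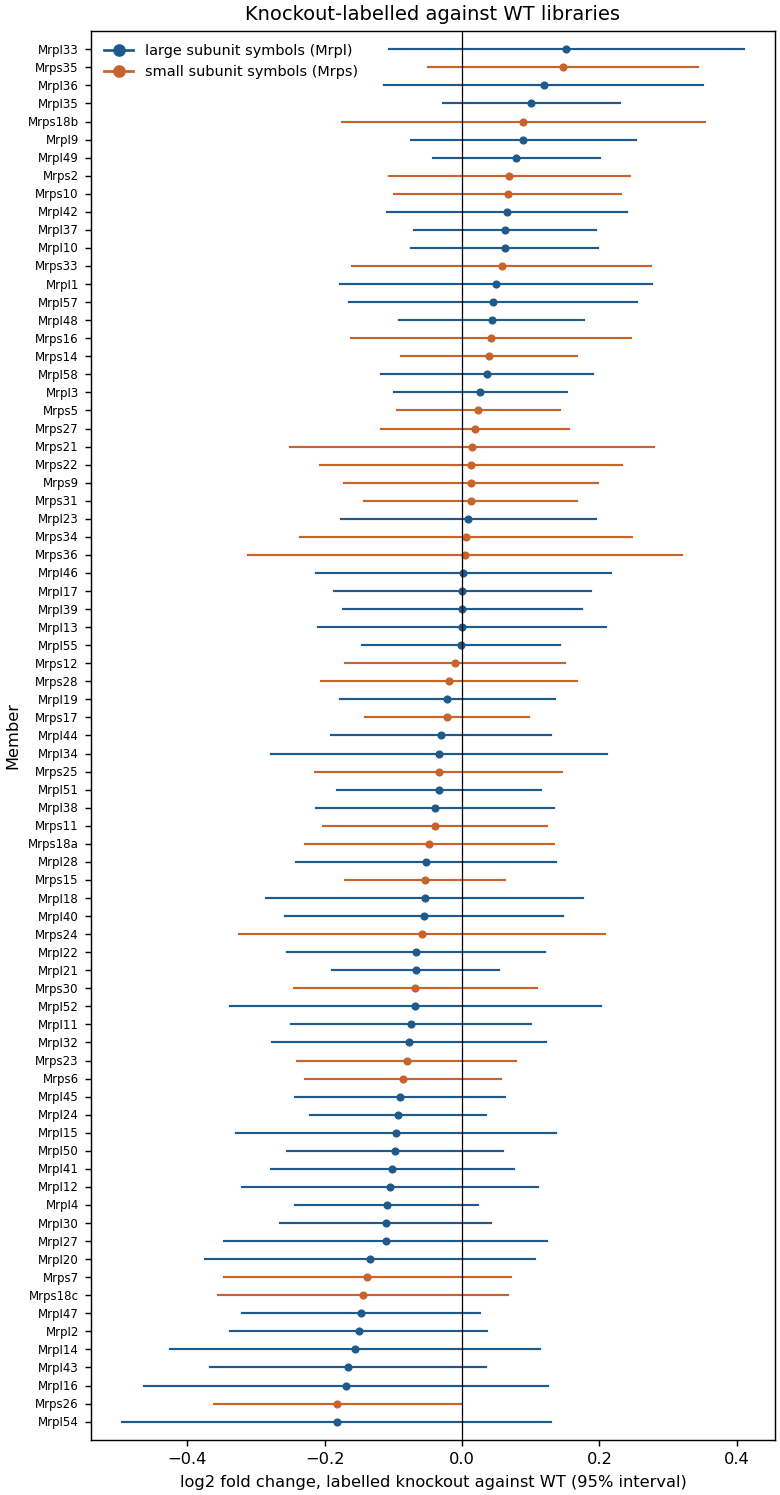
Log2 fold change on the log2(FPKM + 0.5) scale with its 95% interval for each of 77 members, labelled knockout against WT, 3 libraries a group; blue is Mrpl and orange Mrps. The interval of Mrps26 ends just below 0 and those of the other 76 members cross it, with estimates from -0.18 to 0.15.

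Genes with Mrpl symbols held 31 of 48 estimates below 0, with a median of -0.05. On the lower side, Mrpl47, which has a bacterial counterpart, read 2.96, 2.63 and 2.71 FPKM in WT and 2.48, 2.504 and 2.36 FPKM in the knockout-labelled libraries. All 3 values labelled knockout lay below all 3 WT values, as for 4.7% of genes, with a log2 fold change of -0.15 (interval -0.32 to 0.03). Mrpl43, a mitochondria-specific protein, read 32.2, 31.4 and 26.2 FPKM in WT and 27.7, 26.5 and 25.3 FPKM in the knockout-labelled libraries. Its WT replicate 3 lay among the knockout-labelled libraries, and its log2 fold change was -0.17. Mrpl4 and Mrpl2, which have bacterial counterparts in the core of the subunit, gave -0.11 and -0.15. Mrpl2 read 27.5, 25.5 and 23.4 FPKM in WT and 24.8, 21.5 and 22.4 FPKM in the knockout-labelled libraries, again with WT replicate 3 inside the other group's range. Mrpl21 and Mrpl24, the other members with all labelled knockout values below WT, gave -0.07 and -0.09 and were named after their values were seen.

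On the higher side, Mrpl35 read 5.79, 6.04 and 5.57 FPKM in WT and 6.36, 6.22 and 6.18 FPKM in the knockout-labelled libraries. Its groups did not overlap, as for 4.17% of genes with the labelled knockout higher, and its log2 fold change was 0.10 (interval -0.03 to 0.23). Mrpl49, a mitochondria-specific protein, read 17.1, 16.7 and 15.5 FPKM in WT and 17.3, 17.2 and 17.5 FPKM in the knockout-labelled libraries, without overlap and with a log2 fold change of 0.08. The ribosomal gene Fau of the cytosol, whose 5′ end lies 59 bases from that of Mrpl49, gave -0.17. Mrpl33 and Mrpl9, both with bacterial counterparts, gave 0.15 and 0.09 with overlapping groups. Mrpl12, of the stalk that recruits translation factors, read 19.6, 19.0 and 16.3 FPKM in WT and 18.3, 15.4 and 17.3 FPKM in the knockout-labelled libraries. The log2 fold change was -0.10 (interval -0.32 to 0.11).

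Genes with Mrps symbols held 14 of 29 estimates below 0, with a median of 0.004. They include Mrps18a and Mrps30, whose proteins sit in the large subunit and whose estimates were -0.05 and -0.07, and Mrps36 at 0.004. Mrps26, a mitochondria-specific protein (ENSMUSG00000037740, chromosome 2, 130563742 to 130568695), read 12.4, 11.1 and 11.0 FPKM in WT and 11.0, 9.67 and 9.55 FPKM in the knockout-labelled libraries. Knockout-labelled replicate 1 lay just above WT replicate 3, so the groups overlapped. The log2 fold change of Mrps26 was -0.18 (standard error 0.08, interval -0.36 to -0.002), with an unadjusted p of 0.0479 (limma adjusted p = 0.999). The others on the lower side were Mrps18c at -0.14, Mrps7, an RNA-binding protein of the head of the subunit, at -0.14 and Mrps6 at -0.09. On the higher side Mrps35, a mitochondria-specific protein, read 1.87, 2.07 and 1.80 FPKM in WT and 2.23, 2.04 and 2.25 FPKM in the knockout-labelled libraries. The log2 fold change was 0.15 (interval -0.05 to 0.34). Mrps10 and Mrps2 gave 0.07 each, and Mrps2 turned to -0.011 without WT replicate 3 and knockout-labelled replicate 1 together.

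The Mrps18 relatives show how far members of 1 family can differ in level and in their order over libraries. All derive from the same bacterial protein, but Mrps18a sits in the large subunit and Mrps18b and Mrps18c at separate places in the small one. Mrps18a read 11.2, 9.93 and 9.19 FPKM in WT and 9.91, 9.45 and 9.86 FPKM in the knockout-labelled libraries. Mrps18b read 3.68, 4.04 and 4.94 FPKM in WT and 4.12, 4.88 and 4.49 FPKM in the knockout-labelled libraries. It was highest in WT replicate 3 and lowest in WT replicate 1, the reverse of Mrps18a in WT. Mrps18c read 9.31, 9.87 and 8.01 FPKM in WT and 8.80, 7.78 and 7.84 FPKM in the knockout-labelled libraries. All 3 pairs of groups overlapped, with log2 fold changes of -0.05, 0.09 and -0.14. That of Mrps18b ran from 0.006 without WT replicate 1 to 0.20 without WT replicate 3, and that of Mrps18c from -0.08 without WT replicate 2 to -0.23 without WT replicate 3.

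Members were also described by evolutionary origin and by place in the ribosome. Those with a bacterial counterpart had 30 of 46 estimates below 0 and a median of -0.04, and the mitochondria-specific ones 15 of 29 and -0.03. Around the peptidyl transferase centre (Mrpl2, Mrpl3, Mrpl4, Mrpl16 and Mrpl27) 4 of 5 lay below 0, with a median of -0.11. The exit tunnel list had 4 of 7 below 0 and a median of -0.03, the central protuberance 3 of 5 and -0.04, and the stalk 2 of 3 and -0.07. In these classes 0 members passed in limma, and differences between the classes were not tested. Model lengths differed too, with a median of 1170 bases around the peptidyl transferase centre against 2255 over all members. By length, 14 of the 16 shortest tested members lay below 0 (median -0.08), against 6 of the 14 longest (median 0.007). Protein-coding genes of the same short and long classes held 349 of 582 and 2644 of 5584 below 0. Whether length bears on the estimates around this centre was not tested.

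Other parts of mitochondrial gene expression held no gene past the threshold either. Among 5 measured ribosomal subunits without an Mrp symbol, 3 lay below 0. Ptcd3, a small-subunit protein that binds RNA, read 5.24, 5.30 and 5.69 FPKM in WT and 5.79, 5.90 and 5.97 FPKM in the knockout-labelled libraries, without overlap and with a log2 fold change of 0.11. Dap3, a GTP-binding small-subunit protein, gave -0.045. Both mitochondrial ribosomal RNAs were lower in each library labelled knockout than in each WT library. Selection for or against ribosomal RNA in library preparation was not examined, so these values may not follow its abundance. The small-subunit RNA mt-Rnr1 read 2568, 2403 and 2370 FPKM in WT and 2206, 2227 and 2183 FPKM in the knockout-labelled libraries. The log2 fold change was -0.15 (interval -0.37 to 0.07). The large-subunit RNA mt-Rnr2 read 2024, 1899 and 1878 FPKM in WT and 1751, 1816 and 1678 FPKM in the knockout-labelled libraries, also -0.15, with an interval from -0.35 to 0.06. Both come from 1 precursor, and each had a limma adjusted p of 0.999. Their order over libraries was not that of the protein genes, since knockout-labelled replicate 1 was low in both.

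Factors that assemble the ribosome or modify its RNA had 13 of 30 estimates below 0, with a median of 0.02. Nsun4, a methyltransferase for mitochondrial ribosomal RNA, read 1.83, 1.76 and 1.69 FPKM in WT and 2.07, 1.98 and 2.14 FPKM in the knockout-labelled libraries. The log2 fold change was 0.18, with an unadjusted p of 0.0480 (limma adjusted p = 0.999). Its groups did not overlap. Mrm1, another methyltransferase for this RNA, gave 0.15. Translation factors had 6 of 13 below 0, with the ribosome recycling factor Mrrf at 0.22 and the release factor Mtrf1l at 0.12. Transcription and RNA stability genes had 5 of 14 below 0. Of these the 2 with the smallest p, Mterf1a and Mterf2 of the mitochondrial termination factor family, gave 0.38 and 0.19 without overlap. Mterf1a was low, between 0.428 and 1.03 FPKM.

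Regulators of nuclear genes for mitochondria had 5 of 10 estimates below 0. Gabpa, whose product binds the ETS letters searched above, read 3.65, 3.76 and 3.47 FPKM in WT and 3.56, 4.27 and 4.42 FPKM in the knockout-labelled libraries. The log2 fold change was 0.15 with overlapping groups. Myc gave -0.20. The 13 mitochondrial messages, which this ribosome translates, had 9 estimates below 0 and a median of -0.03. The estimates farthest from 0 were mt-Nd4l at -0.70, with an interval from -2.03 to 0.63, and mt-Co3 at -0.31, which turned to 0.092 without WT replicate 1. Other mitochondrial proteins outside the ribosome had 5 of 10 below 0 and a median of 0.01, among them the import receptor gene Tomm20 at -0.09 and the prohibitin gene Phb2 at -0.08.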

How the data were processed

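RNA from cerebral cortex was sequenced by the submitters in 6 libraries, after Trizol extraction and an Illumina TruSeq RNA kit, per the labels' protocols. Bowtie and mm10 are named per the submitters' processing notes; for the counter, its use of strand and the annotation, the answer is not given in the sources used here. The authors deposited FPKM values and gene model lengths for 54532 genes. FPKM times length were whole multiples of 1 step for 100% of values above 0 within 0.001, which gave reads. These steps differ from plain FPKM by a factor of 0.979 to 1.01 per library, so the authors' values carry a further scaling that is not described. GENCODE M21 served for exon overlaps and transcript lengths, and RefSeq for promoters.

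The design foresaw a count test, but the table holds FPKM. All genes averaging 0.5 FPKM or more were tested with limma 3.58.1 in R 4.3.3 on log2(FPKM + 0.5) with a variance trend and no block, two-sided, with Benjamini-Hochberg adjustment over 15694 genes and a threshold of 0.05. On this scale the fold changes of low genes come out too small. The test was run on simulated data with independent noise and changes larger than any member's estimate. That run does not show how the test performs at smaller changes or with shifts shared between genes. Lists were described by counts and medians, with no set test. S6 kinases were left out of the cytosolic ribosomal list.

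Members and lists were chosen with earlier results of these data known. Members were named by rule: in each symbol set (Mrpl, Mrps) and direction the 4 smallest p, the 5 highest and 5 lowest levels, members below the filter, and Mrpl12, the Mrps18 relatives, Mrps30 and Mrps36; from each pathway list, the 2 smallest p. Alternatives were other pseudocounts, filters, scalings, variance settings, voom on the recovered reads, removal of a length trend, a replicate block and leaving out libraries. Dropping WT replicate 3 and knockout-labelled replicate 1 at once, both low in striatum genes, was added after seeing the data.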

Additional observations from a re-analysis of the deposited data

How the results depend on the processing

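No member passed an adjusted p of 0.05 under any of the 19 other settings run. Over all genes 1 passed with protein-coding genes only and 1 without WT replicate 3 and knockout-labelled replicate 1 together. At an unadjusted p under 0.05, all genes counted 599, which was 1214 with no filter, 1420 with sample weights, 2095 without that pair and 426 to 1024 leaving out 1 library, the highest without WT replicate 3 (908 without knockout-labelled replicate 1). The members' count of 1 was 0 with no variance trend or the length trend removed, 2 with voom, 13 with sample weights and 24 without the pair. Leaving out 1 library it ran from 0 (without WT replicate 1 or knockout-labelled replicate 2 or 3) to 10 without WT replicate 3, with 6 without knockout-labelled replicate 1. At the counts of 13, 24, 10 and 6, the share of the 77 members was larger than that of all genes. At the other counts given here it was smaller. These shares were not tested against each other. The members' median of -0.03 became -0.10 without the pair, where 63 of 77 lay below 0, and -0.06 with sample weights. That of genes with Mrpl symbols became -0.12 and of genes with Mrps symbols -0.079 without the pair. Leaving out 1 library the members' median ran from -0.065 to 0.004. Among named genes, Mrps2 turned to -0.011 without the pair, and mt-Co3 ran from -0.56 without WT replicate 3 to 0.092 without WT replicate 1. The cause of these shifts was not tested.

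With replicate number as a block 4 members had an unadjusted p under 0.05 and 0 passed the adjustment. Over all genes the unadjusted count at this setting was 837. The labels give only a number, and same-numbered libraries correlated at 0.08, 0.01 and 0.21 in their deviations from the group means. Knockout-labelled replicate 1 correlated best with WT replicate 2 (0.11) and replicate 2 with WT replicate 1 (0.05). Knockout-labelled replicate 3 correlated best with WT replicate 3 (0.21). With 3 libraries a group these values cannot decide whether libraries were paired. The tested members held 240 to 2548 reads per library, and how much of their spread is counting error was not tested; 3 libraries a group leave differences under about 0.18 log2 units unresolved.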

Other observations

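The table also lists 5 processed pseudogenes with symbols of this family, which were not members. Mrpl48-ps held 21 to 48 reads per library, with a mean of 1.54 FPKM, and Mrpl23-ps1 held 7 to 30 reads. Mrps36-ps1, Mrps36-ps2 and Mrps36-ps3 held at most 6, 6 and 1 reads. Their parent genes had far more, such as 449 to 619 reads for Mrps36, and how the counting divided reads between near-identical copies was not given in the sources used here.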
